A study of Mus musculus with 96 samples.

Results

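Hepatokines are proteins that liver cells make and secrete and that act on other organs or on other liver cells. Transcript levels of 7 of them, Fgf21, Gdf15, Ahsg, Fetub, Lect2, Fgl1 and Igfbp2, were followed in 96 RNA-Seq libraries of mouse hepatocytes and liver macrophages (LMs). The members were chosen by gene symbol, as 7 of the 25095 symbols listed in each table, with the transcript of highest mean level standing for each gene. Values are RPKTM, that is, reads per kb of transcript per 10000000 reads, which makes levels of different genes comparable within a table.

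Every mouse was a C57BL/6J male kept for 4 weeks on a high-fat, high-sucrose (HFHS) diet, which causes fatty liver. Per the methods of the study, mice with floxed alleles received an adeno-associated virus at 8 weeks of age, before the diet, and the virus carried the hepatocyte-specific TBG promoter. It encoded GFP in the Control group and CRE in those labelled ReverbhDKO (RevDKO below, directed at Nr1d1 and Nr1d2, which encode REV-ERBα and REV-ERBβ, repressors within the circadian clock) and Reverb/ScaphTKO (RevScapTKO, the same genes with Scap, which escorts the lipid-regulating SREBP factors to activation). The remaining label, ScaphKO (ScapKO, Scap alone), is a hepatocyte-specific knockout in the paper. How these mice were made or injected is not stated in its methods. Which floxed alleles the Control mice carried is not given in the labels. The deletions were directed to hepatocytes only, so the LM libraries come from mice with the hepatocyte deletion. Livers were sampled at zeitgeber time (ZT, hours after lights on) 4, 10, 16 and 22, with lights off at ZT12, and each genotype, cell type and time point had 3 libraries. Nothing in the labels says whether these came from separate animals, although the methods call them biological replicates. Control, RevDKO and RevScapTKO shared 1 table of 36 libraries per cell type, and ScapKO had tables of its own with 12 libraries per cell type, processed without any Control library, so ScapKO is described only within itself. For the ScapKO hepatocyte libraries title and cell type field disagree (hepatocyte against liver macrophage), and the title was taken.

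The labels were checked on the targeted genes. In hepatocytes Scap had means of 495, 536 and 209 RPKTM for Control, RevDKO and RevScapTKO, from 12 libraries each. Nr1d1 averaged 90.7, 138 and 140, and Nr1d2 averaged 228, 312 and 353, so neither was lower under the labels that name its deletion. Arntl, a gene that REV-ERBs repress, averaged 60.8, 139 and 119, with ranges of 4.21 to 119, 117 to 155 and 96.7 to 141. The paper reports that both REV-ERB genes were markedly reduced in hepatocytes, from relative mRNA levels. Why the values here differ from that was not tested. RevDKO and RevScapTKO therefore mean the libraries labelled so, and every direction given below carries that limit. Of the cell markers, the 12 hepatocyte genes (Alb, Apoa1, Ttr and others) summed to between 556237 and 1737670 RPKTM in hepatocyte libraries of these genotypes. In the LM libraries of the same genotypes the 12 macrophage genes summed to between 3458 and 40846 RPKTM, while the hepatocyte genes summed to more, from 46564 to 155015 in 33 libraries and 1624330 to 3204760 in the Control libraries at ZT16 and ZT22, replicate 1 of each, and the RevScapTKO library at ZT22 replicate 3. Every gene of these lists was above 0 in some library of each genotype. Hepatocyte transcripts were thus abundant in LM libraries, and RNA made in macrophages and RNA carried over from hepatocytes cannot be told apart there. In bulk samples fewer cells of a type and less RNA per cell cannot be told apart either.

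The members fall into groups by role. Fgf21 and Gdf15 are hormones induced by metabolic and cellular stress; FGF21 signals through FGF receptors with the co-receptor β-Klotho (Klb) in adipose tissue and brain, and GDF15 acts through the brainstem receptor GFRAL. Ahsg and Fetub encode fetuin-A and fetuin-B, abundant plasma proteins with cystatin domains, of which fetuin-A inhibits the insulin receptor and mineral deposition and fetuin-B inhibits the egg protease ovastacin. Lect2 encodes a chemotactic factor, Fgl1 (fibrinogen-like 1, or hepassocin) encodes a mitogen for hepatocytes that is also a ligand of the T cell receptor LAG3, and Igfbp2 encodes a binding protein of insulin-like growth factors. FGF21 is a known target of PPARα, of the integrated stress factor ATF4 and of the sugar sensor ChREBP, and GDF15 of ATF4 and CHOP.

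The promoter windows of Fgf21 and Gdf15 are shown because these are the stress hormones of the set, and the level of Fgf21 carries one of the genotype differences described below. RefSeq windows on GRCm38.p6, each from 250 bases before to 50 bases after a transcript start, were matched by symbol for 6 of the 7 members (9 windows), with Fgl1 unmatched; the expression tables are on build mm9, so these coordinates are not those of the tables. They are printed 5′ to 3′ on the strand of the gene, with motif matches in capitals. Fgf21 lies on the minus strand at chr7:45615441-45615740, and the 2 Gdf15 starts on the minus strand at chr8:70632407-70632706 (upstream start) and chr8:70632046-70632345 (downstream start).
Fgf21: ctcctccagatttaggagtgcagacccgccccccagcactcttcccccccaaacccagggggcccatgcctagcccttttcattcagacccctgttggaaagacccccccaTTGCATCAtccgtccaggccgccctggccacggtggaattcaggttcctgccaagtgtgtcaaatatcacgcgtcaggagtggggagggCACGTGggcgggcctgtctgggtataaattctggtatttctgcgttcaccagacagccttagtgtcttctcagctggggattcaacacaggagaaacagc
Gdf15, upstream start: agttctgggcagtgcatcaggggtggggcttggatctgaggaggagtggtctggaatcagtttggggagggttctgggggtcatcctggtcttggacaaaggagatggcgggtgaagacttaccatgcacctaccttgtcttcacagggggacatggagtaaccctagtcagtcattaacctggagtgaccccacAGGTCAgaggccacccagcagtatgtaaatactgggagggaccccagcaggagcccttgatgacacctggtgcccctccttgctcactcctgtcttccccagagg
Gdf15, downstream start: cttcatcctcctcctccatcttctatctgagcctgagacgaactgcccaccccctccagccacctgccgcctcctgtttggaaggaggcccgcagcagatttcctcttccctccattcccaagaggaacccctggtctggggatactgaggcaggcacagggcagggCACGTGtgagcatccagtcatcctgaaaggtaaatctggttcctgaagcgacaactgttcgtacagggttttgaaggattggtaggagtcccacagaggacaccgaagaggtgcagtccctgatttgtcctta

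Both strands were searched. In the Fgf21 window the capitals mark a TGATGNAA element of the kind ATF4 binds, on the opposite strand at positions -139 to -132 from the start, and the E-box CACGTG, the motif of the clock activators and of other E-box factors, at -50 to -45. The Gdf15 upstream start held AGGTCA, the core shared by REV-ERB, ROR and PPAR elements, at -55 to -50, and the downstream start held CACGTG at -83 to -78. CACGTG was present in 7.15% of all 32851 windows in the table, TGATGNAA in 3.97% and AGGTCA in 16.3%. Of the other windows, 1 of Igfbp2 held CACGTG and that of Ahsg held TTGCNNAA, a C/EBP-like motif found in 10.8% of windows. The DR1 repeat of 2 AGGTCA cores spaced by 1 base (in 0.0396% of windows), the D-box TTANGTAA (2.32%), the sterol element TCACNCCAC (1.24%) and the HNF1 palindrome (0.00913%) matched none of the 9 windows. These are matches of letters in short windows and not measured binding.

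In Control hepatocytes the 7 members spanned a wide range of levels. Ahsg was the highest at 34330 ± 3221 RPKTM (SD, n = 12), followed by Fetub at 1190 ± 154 and Fgl1 at 1117 ± 581. Igfbp2 averaged 724 ± 166 and Lect2 266 ± 83.9, and the hormones Gdf15 (23.9 ± 17.0) and Fgf21 (10.7 ± 6.63) were lowest. Ahsg lay far above the rest, and the ranges of Fetub (853 to 1485), Fgl1 (676 to 2405) and Igfbp2 (483 to 954) overlapped. Lect2 (142 to 420) lay below Igfbp2 in every library, and Gdf15 (3.66 to 58.5) and Fgf21 (4.14 to 26.4) overlapped each other. Ahsg ranked between position 10 and 21 of the 42322 transcripts in each hepatocyte library, and because the deposited values were quantile normalized, its value is 1 of only 11 steps set by rank, so its spread is not that of a continuous measure. All 7 genes passed the filter for testing (over 5 RPKTM in at least 3 libraries) in every table.

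**Figure D1:**
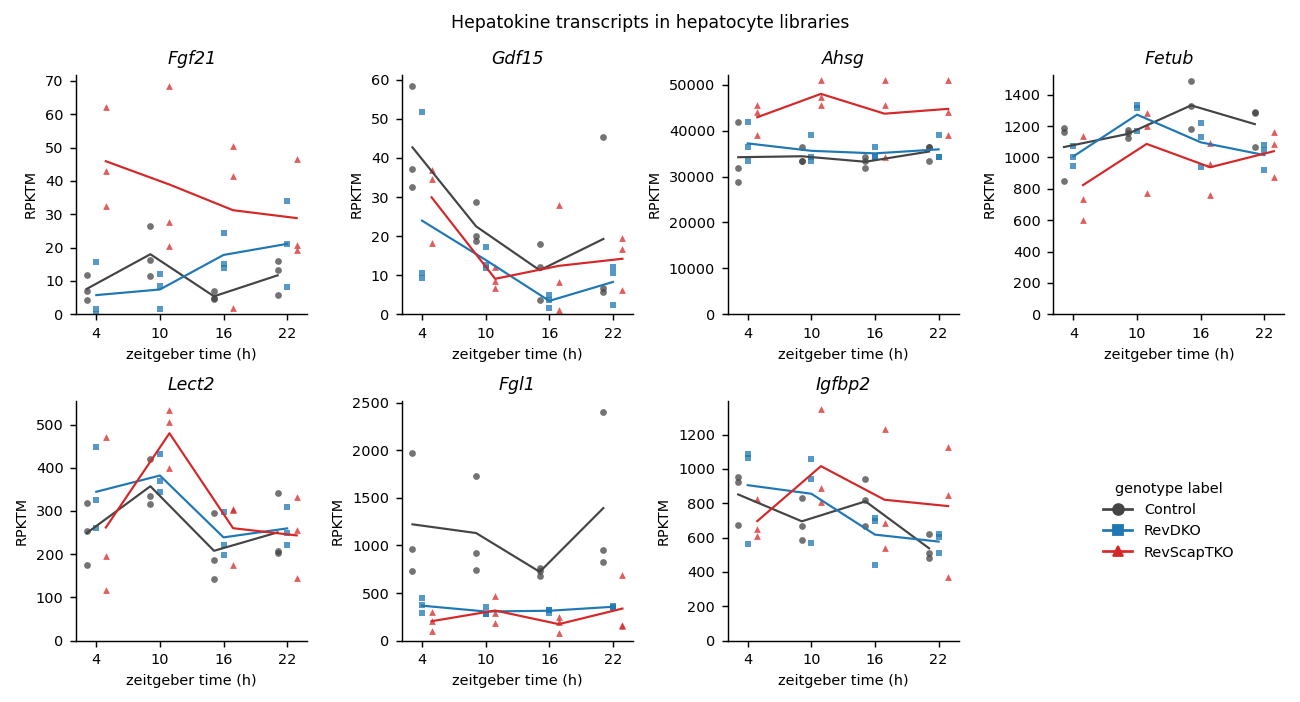
RPKTM of each hepatokine in the 36 hepatocyte libraries against zeitgeber time (h), with 1 point per library (3 per genotype and time, shifted sideways by genotype to be seen apart) and lines through the time point means. Fgl1 of all 12 RevDKO libraries (280 to 443) lies under all 12 Control libraries (676 to 2405), and Fgf21 of RevScapTKO averages 45.9 at ZT4 against 7.61 in Control.

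Fgl1 was the member that fell in RevDKO hepatocytes. The Control libraries measured 728, 967 and 1973 RPKTM at ZT4, 737, 922 and 1733 at ZT10, 765, 728 and 676 at ZT16, and 2405, 948 and 827 at ZT22. The RevDKO libraries measured 443, 370 and 286 RPKTM at ZT4, 281, 280 and 356 at ZT10, 323, 323 and 294 at ZT16, and 363, 347 and 355 at ZT22. Every RevDKO library lay below every Control library, which was so for 0.203% of the 13326 genes tested in hepatocytes, and the wide scatter of Control, with values up to 2405, was absent from RevDKO.

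Averaged over the day, the difference for Fgl1 was -1.60 on the log2(RPKTM + 1) scale (SE 0.24, limma adjusted p 2.43e-05), from 1117 ± 581 to 335 ± 47.7 RPKTM (SD, n = 12 each). All differences below are on this scale, which understates changes of low genes, and are called at an adjusted p under 0.05 over all genes tested. Fgl1 was the only member called in this comparison, where 4.43% of genes were called (2.43% as lower and 2% as higher). At single time points the difference ran from -1.80 at ZT22 to -1.20 at ZT16, and none of the 7 members was called at any of them (for Fgl1, adjusted p 0.0557 to 0.652), with 3 libraries in each group and 0.64% of all gene and time point pairs called. The gene lies on the minus strand at mm9 chromosome 8, 42276788 to 42300510 (NM_145594).

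In RevScapTKO hepatocytes Fgl1 was lower still, at 257 ± 171 RPKTM. The libraries measured 200, 104 and 305 RPKTM at ZT4, 181, 293 and 473 at ZT10, 80.3, 244 and 193 at ZT16, and 156, 686 and 167 at ZT22. At each time point the 3 RevScapTKO libraries lay below the 3 Control libraries, and over the day a single value, 686 at ZT22 replicate 2, reached past the lowest Control value. The difference from Control was -2.22 (SE 0.24, adjusted p 1.52e-08) and was called at all 4 time points (adjusted p 0.000516 at ZT4, 0.0193 at ZT10, 0.00485 at ZT16 and 0.0049 at ZT22). Genes called lower made up 18.7% of all for the mean over the day, and genes called in either direction 18.9%, 4.35%, 3.24% and 3.62% at these times. Leaving out any of 4 libraries of these groups at ZT10, or the Control library at ZT22 replicate 1, lost the call at that time (highest adjusted p 0.142 at ZT10 and 0.0632 at ZT22). The ZT10 call was also lost with no filter (adjusted p 0.0764) or with only the 2 genotypes compared in the fit. Against RevDKO the difference of -0.61 (SE 0.24) missed the threshold (adjusted p 0.0553), and it passed in 6 of the 36 fits that left out 1 library, such as 0.00807 without the RevScapTKO library at ZT22 replicate 2, and with the macrophage marker covariate described below (-1.10, adjusted p 0.0488) or without the 2 libraries least like the others (-0.68, adjusted p 0.019).

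Among its relatives with a fibrinogen domain, the fibrinogen chains Fga, Fgb and Fgg differed from Control by -0.14, -0.17 and -0.10 in RevDKO hepatocytes, none past the threshold (adjusted p 0.588 to 0.791). Fgl2, a prothrombinase also made by macrophages, rose in RevScapTKO over RevDKO by 1.48 (SE 0.30, adjusted p 0.000463) from a low level of 7.37 to 20.3 RPKTM, while macrophage markers were also higher in RevScapTKO hepatocyte libraries, as given below. The genes whose log2 level followed that of Fgl1 most closely over the 36 hepatocyte libraries were the acute phase genes Saa1 (Pearson r 0.85) and Saa2 (0.83) and the pantetheinase gene Vnn3 (0.83). These libraries share genotypes and time points, so such likeness includes the genotype difference itself.

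Fgf21 was higher in RevScapTKO than in the other genotypes. Control hepatocyte libraries measured 6.91, 11.8 and 4.14 RPKTM at ZT4, 11.5, 16.2 and 26.4 at ZT10, 4.46, 4.81 and 6.84 at ZT16, and 15.9, 5.68 and 13.4 at ZT22. RevDKO libraries measured 0, 1.64 and 15.6 RPKTM at ZT4, 1.64, 8.58 and 12.1 at ZT10, 24.4, 13.9 and 15.1 at ZT16, and 21.2, 34.1 and 8.09 at ZT22. RevScapTKO libraries measured 32.5, 42.9 and 62.2 RPKTM at ZT4, 20.5, 68.5 and 27.7 at ZT10, 1.74, 41.4 and 50.5 at ZT16, and 19.2, 46.7 and 20.7 at ZT22. At ZT4 all 3 RevScapTKO libraries lay above all RevDKO and Control libraries, and at ZT16 the lowest RevScapTKO value lay under all of them.

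The mean over the day was 10.7 ± 6.63 RPKTM for Control, 13.02 ± 10.1 for RevDKO and 36.2 ± 19.4 for RevScapTKO (SD, n = 12 each). The rise in RevScapTKO was 1.63 over RevDKO (SE 0.41, limma adjusted p 0.00417) and 1.55 over Control (SE 0.41, adjusted p 0.00415), while RevDKO and Control differed by -0.08 (SE 0.41, adjusted p 0.953). These contrasts called 26.2% and 35.9% of all genes, so a call is common there. At ZT4 (9.28% and 18.9% of genes called) the difference was 3.69 over RevDKO (adjusted p 0.00542) and 2.50 over Control (adjusted p 0.0343), the latter lost without any of 5 of the 6 libraries at that time (highest adjusted p 0.124), and the former at 0.0546 without the RevDKO library at ZT4 replicate 1, which is listed at 0. The ZT4 difference over RevDKO ran from 1.92 with a pseudocount of 10 to 4.99 with 0.1, and that over Control was not called with a pseudocount of 0.1 or with no filter (adjusted p 0.0917 and 0.0758). In RevDKO the level was lowest at ZT4 (5.74 ± 8.57) and highest at ZT22 (21.1 ± 12.99, SD, n = 3 each), whereas Control peaked at ZT10 (18.01 ± 7.63), and the test of a changed 24 h rhythm gave an unadjusted p of 0.0222 and an adjusted p of 0.872. At ZT10, ZT16 and ZT22 no member was called for RevScapTKO minus RevDKO, where 0.908%, 1.37% and 2.35% of genes were. Fgf21 (NM_020013) lies at mm9 chromosome 7, 52869260 to 52870860, on the minus strand.

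Markers of other liver cells moved with this result. The sum of the 12 macrophage markers in hepatocyte libraries ranged from 256 to 3306 RPKTM in Control (median 932), from 417 to 2570 in RevDKO (median 1156) and from 1014 to 6710 in RevScapTKO (median 3114). The 8 endothelial markers had medians of 1221, 1372 and 2274 and the 7 stellate markers 931, 1245 and 2817. The 6 cholangiocyte markers had medians of 57.2, 65.5 and 145, while the 9 lymphocyte markers reached at most 15.3 and the 6 neutrophil markers at most 31.9 in any library, with the neutrophil gene Ly6g at 0 in all Control and all RevScapTKO libraries. With the mean log2 level of the macrophage markers as a covariate, the Fgf21 difference over RevDKO was 0.63 (adjusted p 0.715) and over Control 0.47 (adjusted p 0.718), no longer past the threshold, and neither were the ZT4 differences (2.605 and 0.93, adjusted p 0.138 and 0.719). Under the same covariate Fgl1 differed from Control by -1.64 in RevDKO (adjusted p 5.15e-06) and by -2.75 in RevScapTKO (adjusted p 2.88e-07). The part of the marker levels in the Fgf21 result was not tested.

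**Figure D2:**
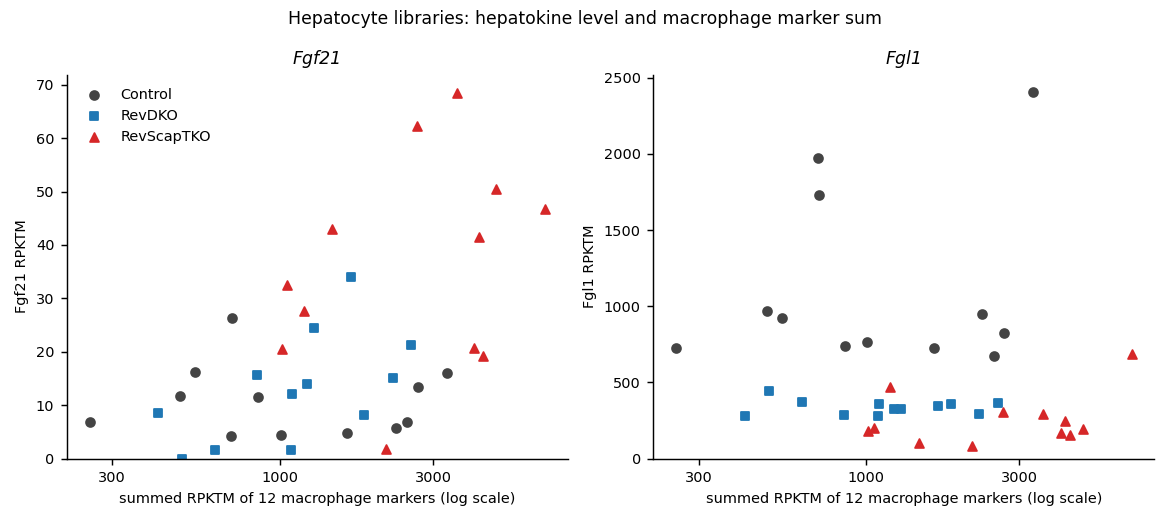
RPKTM of Fgf21 (left) and Fgl1 (right) against the summed RPKTM of 12 macrophage markers (log scale) in the 36 hepatocyte libraries, 1 point per library. The RevScapTKO libraries reach marker sums of 6710, beyond the highest Control sum of 3306. Fgl1 lies between 280 and 443 in all RevDKO libraries and at 676 or more in all Control libraries.

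The pathway genes around Fgf21 were read from lists. Of 13 PPARα pathway genes, 7 fell and none rose in RevDKO hepatocytes, among them the thioesterase Acot1 (-2.62, adjusted p 2.20e-07), the ω-hydroxylase Cyp4a14 (-1.95, adjusted p 0.00241) and the pantetheinase Vnn1 (-1.28, adjusted p 0.00546). In RevScapTKO against RevDKO 8 of them fell, led by Cyp4a14 (-2.93, adjusted p 3.14e-06) and the peroxisomal enzyme Ehhadh (-1.15, adjusted p 3.18e-07), and Cpt1a, the gate of mitochondrial fatty acid oxidation, rose (0.44, adjusted p 0.00328). The list had a median difference of -0.51 and -0.61 in these contrasts, against -0.01 and -0.03 over all genes. RevDKO against Control called 2.43% of all genes lower, and RevScapTKO against RevDKO called 12.7% lower and 13.5% higher. Fgf21 was called higher in RevScapTKO against RevDKO without the marker covariate. A link between its level and this list was not tested.

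Of 10 genes of the integrated stress response, 3 fell in RevDKO against Control, namely Cebpb (-0.60, adjusted p 0.0273), Sesn2 (-0.59, adjusted p 0.0374) and Atf4 (-0.44, adjusted p 0.00404). That contrast called 2.43% of all genes lower. In RevScapTKO against RevDKO the stress factors Atf3 (1.81, adjusted p 0.00054) and Trib3 (0.93, adjusted p 0.00103) rose and none fell. This contrast called 13.5% of all genes higher and 12.7% lower, so such counts are near the share of all genes. In RevScapTKO against Control, Trib3, Atf3 and Eif2ak3 were called higher and Cebpb and Atf4 lower, where 17.3% of all genes were called higher and 18.7% lower. Among 12 liver and sugar-responsive transcription factors, Mlxipl encodes ChREBP. It differed by -0.06 in RevDKO against Control and by -0.15 in RevScapTKO against RevDKO (adjusted p 0.907 and 0.526). Srebf1 fell in RevScapTKO against RevDKO by -4.07 (adjusted p 2.61e-17), Cebpa fell by -0.41 (adjusted p 0.00602) and the oxidative stress factor Nfe2l2 rose by 0.35 (adjusted p 0.0119). Klb, the co-receptor of FGF21, fell in that contrast by -0.52 (SE 0.14, adjusted p 0.00701), from 296 ± 20.6 to 214 ± 66.1 RPKTM, and its receptors Fgfr4 (0.04) and Fgfr1 (0.26) were not called. Most like Fgf21 over the hepatocyte libraries were Tmem86a (Pearson r 0.75), Hsd17b13, which encodes a lipid droplet enzyme (0.74), and Slc41a3 (0.73).

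Gdf15 was low and scattered, and no genotype difference was called. Control hepatocytes measured 32.6, 58.5 and 37.1 RPKTM at ZT4, 19.95, 18.8 and 28.8 at ZT10, 18.03, 3.66 and 12.1 at ZT16, and 45.4, 6.62 and 5.82 at ZT22. RevDKO hepatocytes measured 10.7, 9.37 and 51.8 RPKTM at ZT4, 12.6, 17.3 and 11.8 at ZT10, 4.89, 3.73 and 1.64 at ZT16, and 2.27, 10.5 and 11.998 at ZT22. The groups overlapped at ZT4, ZT16 and ZT22, and at ZT10 all 3 RevDKO libraries lay below all 3 Control libraries.

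The difference for Gdf15 in RevDKO was -0.98 over the day (SE 0.37, adjusted p 0.139), from 23.9 ± 17.0 to 12.4 ± 13.3 RPKTM, and RevScapTKO (16.4 ± 11.6) differed from RevDKO by 0.46 (SE 0.37, adjusted p 0.369). Gdf15 has 2 transcripts in the tables, and NM_001330687 (mm9 chromosome 8, 73153292 to 73156355, minus strand) stood for it here, while NM_011819 had the higher mean in the ScapKO tables. The genes most like it were the immediate early genes Jun (Pearson r 0.86) and Btg2 (0.84) and the uncharacterized 1700094J05Rik (0.74). Its receptor genes Gfral and Ret did not pass the filter in either cell type.

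The 2 fetuin genes, which are neighbours on chromosome 16, moved in opposite directions in RevScapTKO against Control. Ahsg measured 28906 to 41798 RPKTM in Control (median 33387), 33387 to 41798 in RevDKO (median 34337) and 34337 to 51122 in RevScapTKO (median 45647). Over the day it rose in RevScapTKO by 0.31 over RevDKO (SE 0.10, limma adjusted p 0.0229) and by 0.38 over Control (SE 0.10, adjusted p 0.00424), and RevDKO differed from Control by 0.07 (adjusted p 0.808). At ZT10 all 3 RevScapTKO libraries (45647 to 51122) lay above all RevDKO and Control libraries, and no single time point was called. Given the steps in its values, this is a move of a few ranks among the most abundant transcripts. With no filter on low values both Ahsg calls were lost (adjusted p 0.681 and 0.558), and with the macrophage marker covariate as well (0.461 and 0.207).

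Fetub, in contrast, measured 853 to 1485 RPKTM in Control (median 1178), 917 to 1333 in RevDKO (median 1077) and 598 to 1285 in RevScapTKO (median 1024). It was lower in RevScapTKO than in Control by -0.32 (SE 0.10, adjusted p 0.0143), and the steps from Control to RevDKO (-0.12, adjusted p 0.63) and from RevDKO to RevScapTKO (-0.20, adjusted p 0.137) were not called. At ZT16 all 3 RevScapTKO libraries, at 1093, 759 and 961, lay below the Control libraries at 1485, 1184 and 1328. With the marker covariate the difference from Control was -0.10 (adjusted p 0.757). The list holds 3 further cystatin-domain genes, Hrg, Kng1 and Kng2. In RevScapTKO against Control all fell, by -0.29 (adjusted p 0.0352), -0.43 (adjusted p 0.00204) and -0.57 (adjusted p 3.44e-05), so that 4 of the 5 genes of this list fell and Ahsg rose, in a contrast that called 18.7% of all genes lower and 17.3% higher.

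Ahsg (NM_013465) lies on the plus strand at mm9 chromosome 16, 22892088 to 22899524, and overlaps the opposite-strand gene Gm30505 by 2372 bp, and if counting ignored the strand the 2 genes share reads. Fetub (NM_021564) lies at 22920295 to 22939841 on the same strand, 18931 bp further on. Over the 36 hepatocyte libraries Ahsg was most like the transporter Abcc12 (Pearson r 0.83), Alcam (0.80) and the lysosomal membrane gene Cd63 (0.79), and Fetub most like the cytochrome P450 gene Cyp2c54 (0.81), the complex I subunit Ndufv1 (0.79) and Yif1b (0.78).

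Lect2 and Igfbp2 were not called in any genotype comparison in hepatocytes. Lect2 (NM_010702, mm9 chromosome 13, 56643821 to 56649899, minus strand) averaged 266 ± 83.9 RPKTM for Control, 306 ± 81.8 for RevDKO and 311 ± 142 for RevScapTKO (SD, n = 12 each), with differences of 0.22 (SE 0.18, adjusted p 0.58) and -0.08 (SE 0.18, adjusted p 0.761). In each genotype its highest time point mean was at ZT10, at 357 ± 55.4, 382 ± 45.6 and 480 ± 70.7 RPKTM (SD, n = 3 each). The RevScapTKO libraries at ZT10 measured 534, 400 and 506, and those at ZT4 spread from 118 to 470. Lect2 was most like the respiratory chain genes Ndufb9 (Pearson r 0.80) and Uqcrh (0.80) and the secreted phosphoprotein gene Spp2 (0.80).

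Igfbp2 (NM_008342, mm9 chromosome 1, 72871054 to 72899045, plus strand) averaged 724 ± 166, 739 ± 235 and 829 ± 289 RPKTM in these genotypes, and RevScapTKO differed from RevDKO by 0.15 (SE 0.16, adjusted p 0.529). Of 6 tested insulin-like growth factor binding protein genes, none was called in RevDKO against Control, and in RevScapTKO against RevDKO the vascular gene Igfbp7 rose (0.59, adjusted p 0.00163). The former contrast called 2% of all genes higher and 2.43% lower. The latter called 13.5% higher and 12.7% lower, so single calls are common there. Among the partners of the pathway, Igf1 averaged 2174 RPKTM in Control and 2205 in RevScapTKO and was not called (0.01, adjusted p 0.945), Igfals, the subunit that holds circulating IGF complexes together, fell in RevScapTKO against RevDKO (-0.39, adjusted p 0.0478), and the clearance receptor Igf2r rose (0.54, adjusted p 0.000647). Igfbp2 was most like Acsm1 (Pearson r 0.70), Nxpe2 (0.69) and the transporter Slc22a28 (0.69).

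**Figure D3:**
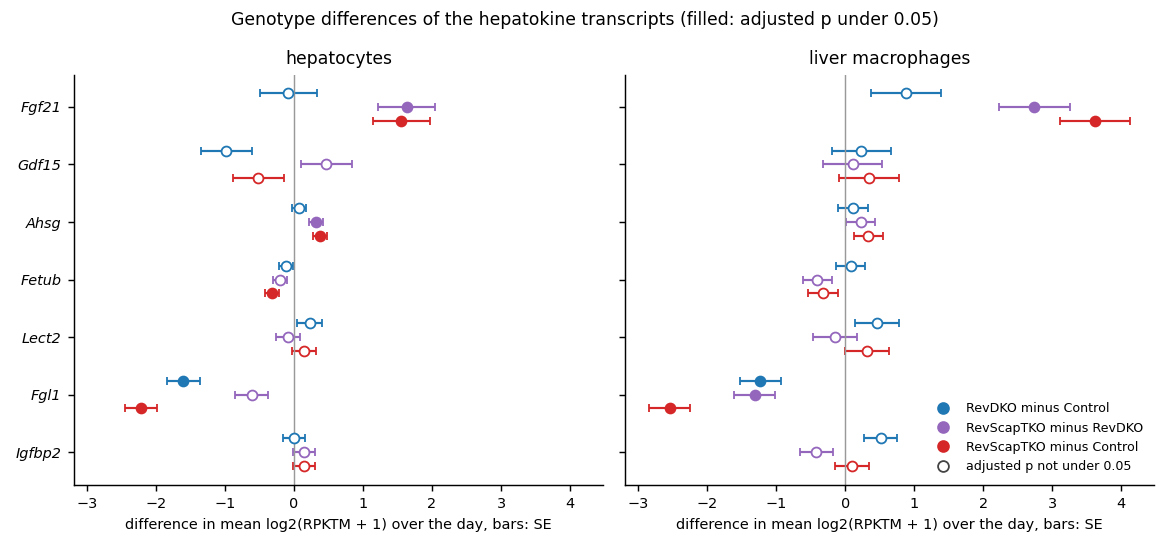
Difference in mean log2(RPKTM + 1) over the day for each hepatokine in hepatocytes (left) and LMs (right), with bars of 1 SE from limma and filled points at an adjusted p under 0.05. In both cell types Fgl1 lies left of 0 in every contrast and Fgf21 lies right of 0 in both RevScapTKO contrasts, at 1.63 and 1.55 in hepatocytes and 2.74 and 3.62 in LMs.

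Of 20 other secreted hepatocyte factors, 1 rose and 1 fell in RevDKO against Control, namely Itih3, a hyaluronan-binding inhibitor subunit (0.53, adjusted p 0.00727), and Enho, which encodes adropin (-1.15, adjusted p 0.0119). Of all genes, 2% were called higher and 2.43% lower there. In RevScapTKO against RevDKO 7 rose and 5 fell. Fst, which encodes follistatin, fell by -1.38 (adjusted p 0.00299) and Angptl8, which encodes a regulator of lipoprotein lipase, by -1.07 (adjusted p 0.0324). Gpnmb (2.11, adjusted p 6.16e-05), which macrophages also make, rose from a very low level of 0.24 to 5.71 RPKTM. A gene this low in RevDKO can pass the filter through its RevScapTKO libraries, the group where it was called higher. Enho (0.87, adjusted p 0.0224), the cholesterol-related factor Tsku (0.75, adjusted p 0.0109) and the iron hormone Hamp (0.74, adjusted p 0.0185) rose as well. In this contrast 2 of the 7 members, Fgf21 and Ahsg, were called higher, where 13.5% of all genes were called higher and 12.7% lower.

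The same 7 transcripts were measured in LM libraries. Control LMs held Ahsg at 5470 ± 1923 RPKTM, Fetub at 211 ± 99.0, Igfbp2 at 156 ± 86.7 and Fgl1 at 128 ± 69.1 (SD, n = 12). Lect2 averaged 21.1 ± 25.2, Gdf15 11.7 ± 16.8 and Fgf21 0.91 ± 1.69. Ahsg stayed far above the rest, the ranges of Fetub, Igfbp2 and Fgl1 overlapped, and so did those of Lect2, Gdf15 and Fgf21, with Lect2 (up to 85.3) also reaching into the range of Fgl1. Ahsg took 21 distinct values among 36 libraries, and 3 RevDKO libraries at ZT16 shared 6495 RPKTM. Levels in the hepatocyte and LM tables were normalized apart and are set side by side only as a description.

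Fgl1 fell in LM libraries of both knockouts. Control libraries measured 65.6, 77.5 and 136 RPKTM at ZT4, 55.3, 85.4 and 182 at ZT10, 60.1, 152 and 159 at ZT16, and 152, 112 and 298 at ZT22. RevDKO libraries measured 19.02, 17.4 and 14.8 RPKTM at ZT4, 66.2, 18.1 and 38.7 at ZT10, 47.2, 45.7 and 80.3 at ZT16, and 177, 164 and 110 at ZT22. RevScapTKO libraries measured 9.11, 8.51 and 16.96 RPKTM at ZT4, 6.32, 12.9 and 12.95 at ZT10, 7.18, 19.2 and 42.5 at ZT16, and 37.3, 182 and 25.8 at ZT22. At ZT4 all 3 RevDKO libraries lay below Control, at ZT22 they overlapped, and RevScapTKO lay below Control at every time except ZT22.

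The Fgl1 difference in LMs was -1.23 for RevDKO minus Control (SE 0.30, limma adjusted p 0.0419), a contrast that called 0.574% of the 13947 genes tested (0.172% lower and 0.402% higher), and it is close to the threshold: leaving out 1 library lost the call in 20 of 36 fits (adjusted p up to 0.0971, without the Control library at ZT10 replicate 3), with the estimate between -1.34 and -1.11. For RevScapTKO minus RevDKO it was -1.31 (SE 0.30, adjusted p 0.00827, 3% of genes called and 1.78% lower), and for RevScapTKO minus Control -2.54 (SE 0.30, adjusted p 4.52e-07, 3.76% called and 1.38% lower). With the mean level of the hepatocyte markers as a covariate these were -1.28, -1.11 and -2.40, all called. Without the 3 libraries in which Alb was among the top 2 transcripts they were -1.37, -1.17 and -2.54, all called. Hepatocyte libraries of the knockouts were themselves low in Fgl1, so the covariate fit cannot tell carried-over RNA from RNA made in macrophages. The RevDKO minus Control call was lost with a pseudocount of 0.1 (-1.255) or with no filter (-1.231, adjusted p 0.156). At single time points Fgl1 was called for RevScapTKO minus Control at ZT4 (-2.90, adjusted p 0.0139) and ZT10 (-3.10, adjusted p 0.0107), at 0.33% and 0.201% of genes called, and leaving out 1 library lost these calls in 4 and 2 fits (highest adjusted p 0.155 and 0.178). Both calls were also lost with no filter (adjusted p 0.0707 and 0.0732) or with only the 2 genotypes compared in the fit. No member was called at ZT16 or ZT22 (0.186% and 0.136% of genes), or at any time for RevDKO minus Control (0.0323% of gene and time point pairs) and RevScapTKO minus RevDKO (0.21%). The contrasts share libraries with each other. Hepatocyte and LM libraries that share genotype, time point and replicate number form 36 pairs. In these, deviations from group means correlated at Pearson r 0.63 for Fgl1, 0.65 for Gdf15 and 0.37 for Fgf21. Without the 2 pairs farthest off in hepatocytes the values were 0.60, 0.48 and 0.18. The other members ranged from -0.30 (Lect2) to 0.36 (Ahsg). Whether such pairs share an animal is not given in the labels, and whether levels in the 2 cell types depend on each other was not tested.

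Fgf21 was near 0 in most LM libraries but not in those of RevScapTKO. Control libraries were listed at 0.50, 0 and 0 RPKTM at ZT4, 0 in all 3 at ZT10, 0.35, 1.10 and 3.53 at ZT16, and 0.16, 0 and 5.24 at ZT22, and 5 of 12 RevDKO libraries were listed at 0, the highest at 8.83. RevScapTKO libraries measured 70.5, 26.1 and 59.8 RPKTM at ZT4, 5.35, 55.7 and 24.9 at ZT10, 1.10, 17.2 and 45.6 at ZT16, and 6.76, 4.62 and 18.4 at ZT22. All RevScapTKO values at ZT4 exceeded every Control and RevDKO value of the table.

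The difference in LMs was 2.74 over RevDKO (SE 0.51, limma adjusted p 0.000914) and 3.62 over Control (SE 0.51, adjusted p 1.37e-05), and at ZT4 5.42 over Control (adjusted p 0.0061, or 0.0503 without the Control library at ZT4 replicate 2). The ZT4 value ran from 2.53 with a pseudocount of 10 to 8.05 with 0.1, where the call was lost (adjusted p 0.0631). Fgf21 exceeded 5 RPKTM in 10 RevScapTKO, 3 RevDKO and 1 Control library. Genes called higher made up 1.23% of all over RevDKO and 2.38% over Control. Because Control is at or near 0, the size depends on the pseudocount, from 1.53 with 10 to 5.67 with 0.1 added for the difference over Control. The hepatocyte marker sums of the LM libraries had medians of 110052 in Control, 107956 in RevDKO and 120523 in RevScapTKO, and with these markers as a covariate the differences were 3.71 and 4.33, both called. Hepatocyte libraries of RevScapTKO were themselves higher in Fgf21, so this fit cannot tell carried-over RNA from RNA made in macrophages. The macrophage marker sums had medians of 18566, 9552 and 10312 and the cholangiocyte marker sums 41.8, 47.6 and 86.4, and the part of these in the LM differences of Fgf21 and Fgl1 was not tested. Of the stress genes, Trib3 (1.82, adjusted p 0.0111), Ddit3 (1.68, adjusted p 0.0338) and Atf3 (1.37, adjusted p 0.0385) rose in LM libraries of RevScapTKO over RevDKO, 3 of 10 in that list.

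**Figure D4:**
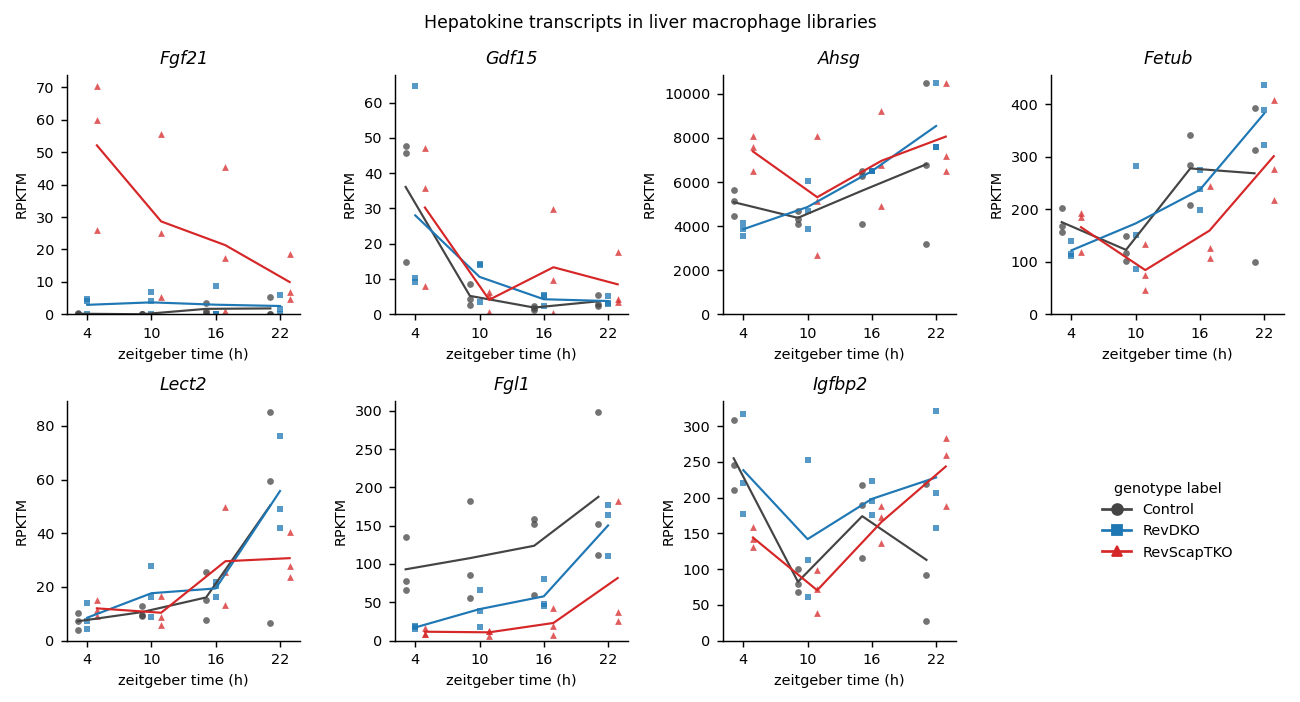
RPKTM of each hepatokine in the 36 LM libraries against zeitgeber time (h), drawn as for hepatocytes with 1 point per library and lines through time point means. Fgf21 in RevScapTKO falls from a mean of 52.1 at ZT4 to 9.94 at ZT22 while Control stays at 1.80 or less on average, and Gdf15 in Control is highest at ZT4, at 36.1 on average.

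The remaining 5 members were not called in LMs. Igfbp2 differed by 0.52 for RevDKO minus Control (SE 0.24, adjusted p 0.331) and by -0.42 for RevScapTKO minus RevDKO (adjusted p 0.366). Its relative Igfbp1, an insulin- and stress-regulated binding protein, was the 1 of 6 tested that rose in RevDKO over Control (1.71, SE 0.33, adjusted p 0.00623), from 27.4 to 73.7 RPKTM, and in hepatocytes it differed by 0.63 (adjusted p 0.222). Lect2 (0.46, adjusted p 0.488), Gdf15 (0.23, adjusted p 0.819), Ahsg (0.11, adjusted p 0.828) and Fetub (0.08, adjusted p 0.879) gave the other values for RevDKO minus Control. At ZT4 all 3 RevDKO libraries lay below Control for Ahsg (3558 to 4162 against 4479 to 5628) and Fetub (112 to 139 against 156 to 203), without a call.

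The related lists were read in LM libraries against the share of all genes called. In RevDKO against Control, where 0.574% of genes were called, none of 14 tested receptors and partners, 20 other secreted factors, 10 stress genes or 12 transcription factors was called, and of 13 PPARα pathway genes Cyp4a14 fell (-1.88, adjusted p 0.0363). In RevScapTKO against RevDKO, where 1.78% of genes were called lower and 1.23% higher, 4 PPARα pathway genes fell, led by Cyp4a14 (-2.78, adjusted p 0.000112) and Ehhadh (-1.24, adjusted p 2.97e-05), and Igfals (-0.81, adjusted p 0.0167) fell among the receptors and partners. Of the secreted factors 2 fell and 2 rose, the latter being Gpnmb (2.42, adjusted p 5.33e-05) and Tsku (1.002, adjusted p 0.0428) rose, and Srebf1 (-3.17, adjusted p 4.08e-13) fell among the transcription factors. None of the 5 genes of the fetuin locus was called, and of the 5 fibrinogen relatives only Fgl1 was.

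JTK_CYCLE, which ranks a series against curves of set periods, was used to call daily rhythms, with the 12 libraries of a genotype entered 2 times in a row as the study did, which lowers every p without adding data. Periods of 18 and 24 h were tried and a call needed 24 h to be the better. In Control hepatocytes 1 of 7 members, Gdf15, was rhythmic (p 0.0048 adjusted over the patterns tried, peak at ZT4, peak to trough ratio of time point means 3.80), against 20.8% of all genes tested. None was rhythmic in RevDKO or RevScapTKO hepatocytes, where 20.5% and 12% of genes were, the p of Gdf15 being 0.15 and 0.0841. Gdf15 was again highest at ZT4 in both, at 23.96 ± 24.1 and 29.9 ± 10.2 RPKTM (SD, n = 3 each). With the 24 h period tried alone, so with fewer patterns to adjust for, Lect2 was also called in RevDKO and Gdf15 and Lect2 in RevScapTKO hepatocytes. With the series entered once no member was rhythmic in these hepatocytes, where 4.36% of genes in Control, 3.83% in RevDKO and 1.48% in RevScapTKO were. A rhythm called in one genotype and missed in another is not a tested difference. The limma test of changed 24 h terms called no member in either cell type, at a background of 0.203% for RevDKO minus Control, 0% for RevScapTKO minus RevDKO and 0.188% for RevScapTKO minus Control in hepatocytes and 0% in LMs. For RevDKO minus Control 1 member (Fgf21) had an unadjusted p under 0.05 in hepatocytes and none in LMs. For RevScapTKO minus RevDKO Fgf21 alone had one by this limma test in hepatocytes (0.00543, adjusted p 0.922), and no member had one in LMs. Fitting 24 h cosine and sine terms within each genotype by limma called 1 member, Fgl1 in RevDKO LMs (adjusted p 0.0374, 2.53% of genes), and none in the other LM groups (0.0502% of genes in Control, 0.0789% in RevScapTKO and 0% in ScapKO) or in hepatocytes (8.29% in Control, 4.08% in RevDKO, 0.683% in RevScapTKO and 1.85% in ScapKO).

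In LM libraries Gdf15 was also rhythmic in Control (JTK_CYCLE adjusted p 2.71e-05, peak at ZT4), from 14.7, 47.8 and 45.8 RPKTM at ZT4 to 1.307, 2.48 and 1.89 at ZT16, 1 of 7 members against 11.2% of genes, and it was so with the series entered once as well (1.01% of genes). In RevDKO LMs Ahsg and Fetub were rhythmic with highest means at ZT22 (2 of 7, against 16.1%), and in RevScapTKO LMs Fetub, Lect2, Fgl1 and Igfbp2 were (4 of 7, against 8.57%), all with peaks at ZT22. Leaving out the RevScapTKO library at ZT10 replicate 1, ZT22 replicate 1 or ZT22 replicate 2 left only Fetub and Igfbp2 rhythmic in that group. Without ZT22 replicate 3, which had the highest hepatocyte marker sum of RevScapTKO LMs, Fetub, Lect2 and Igfbp2 were rhythmic. With the series entered once, Fetub and Igfbp2 in RevScapTKO remained (0.805% of genes) and the 2 in RevDKO did not (1.5% of genes). With the 24 h period alone Fetub was also called in Control, Fgl1 in RevDKO and Fgf21 in RevScapTKO LMs. Fetub rose from 112 to 139 RPKTM at ZT4 to 321 to 437 at ZT22 in RevDKO. The macrophage marker sums of LM libraries were lower at ZT22 than at ZT4 in RevDKO, at 4225 to 7570 against 13660 to 32118 RPKTM, and the hepatocyte marker sums were 93615 to 155015 against 66077 to 119300. The part of these markers in the rhythms was not tested.

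In the ScapKO hepatocyte table, Ahsg averaged 55517 ± 6935 RPKTM, Fetub 2535 ± 274, Igfbp2 2303 ± 412, Fgl1 653 ± 179, Lect2 525 ± 143, Gdf15 80.0 ± 42.6 and Fgf21 22.6 ± 11.9 (SD, n = 12). The order of levels has Igfbp2 above Fgl1 in every library, and the ranges of Fetub and Igfbp2, of Fgl1 and Lect2, and of Gdf15 and Fgf21 overlapped. Fgl1 was the 1 rhythmic member (JTK_CYCLE adjusted p 0.0447, against 12.9% of genes), with 857, 895 and 737 at ZT22 and 456, 357 and 681 at ZT10, and the call was lost without any of 9 of the 12 libraries and with the series entered once (2.67% of genes). Ahsg passed on p (0.0157) but not on the ratio of peak to trough (1.28). Of these libraries, ZT22 replicate 1 had the lowest hepatocyte marker sum, 494422 RPKTM against at least 1365910 in the others, and ZT22 replicate 2 the highest macrophage marker sum, 3728.

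In ScapKO LMs 5 of 7 members were rhythmic with peaks at ZT22, namely Ahsg, Fetub, Igfbp2, Fgl1 and Gdf15, against 13.3% of genes. Ahsg measured 1211, 1837 and 1466 RPKTM at ZT10 and 4011, 11197 and 4537 at ZT22, and Igfbp2 measured 91.3, 60.6 and 92.4 at ZT10 and 101, 915 and 314 at ZT22. The hepatocyte marker sums moved alike, from 28386 to 39461 RPKTM at ZT10 and from 79962 to 177627 at ZT22, and the share of these markers in the rhythms was not tested. The library at ZT22 replicate 2 held the highest value of every member and the lowest macrophage marker sum (23579 RPKTM against at least 88227 in the others), and without it only Ahsg and Fetub were rhythmic. With the series entered once, Ahsg alone was (1.96% of genes).

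**Figure D5:**
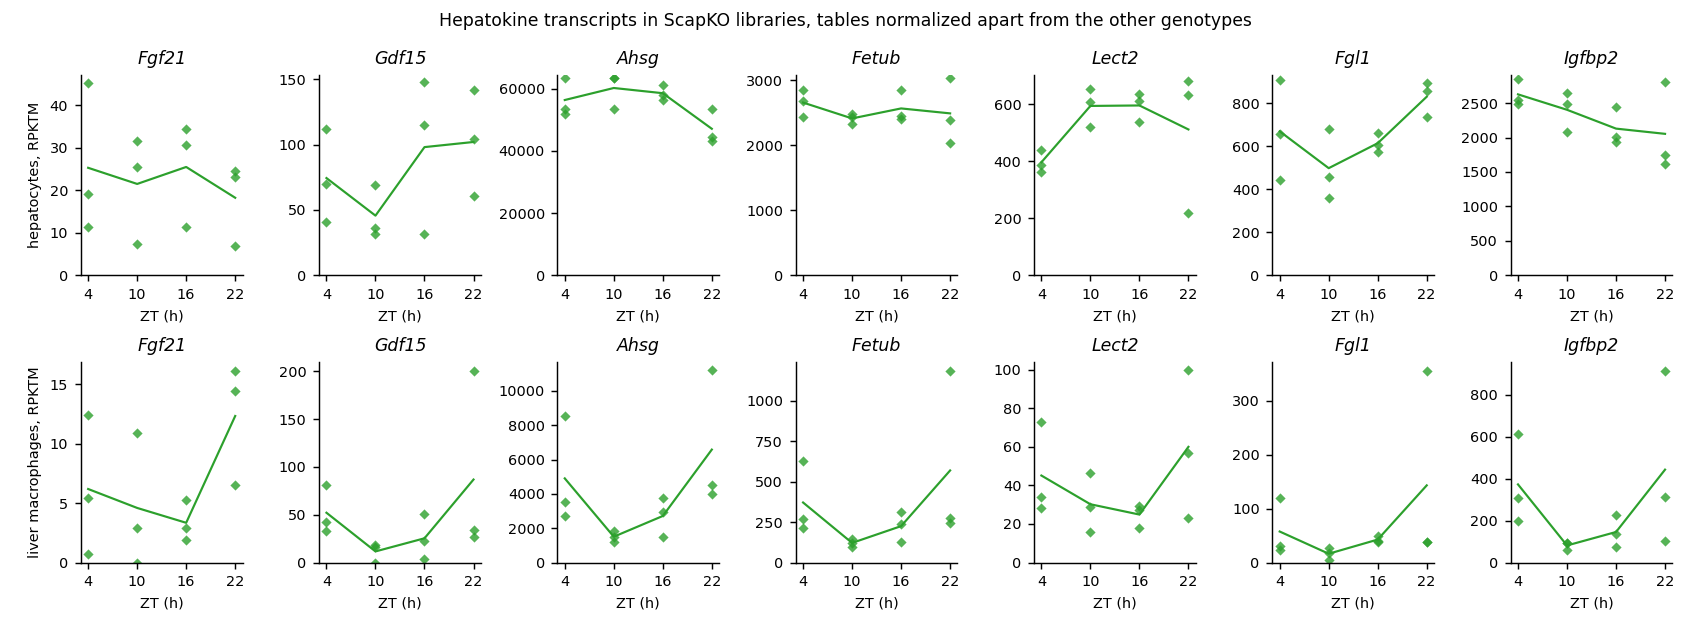
RPKTM of each hepatokine in the 12 ScapKO hepatocyte libraries (top) and the 12 ScapKO LM libraries (bottom) against zeitgeber time (h), 1 point per library with lines through time point means. In LMs all 7 members have their highest mean at ZT22, where replicate 2 holds the highest value of each member.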

How the data were processed

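RNA-Seq of rRNA-depleted, strand-preserving libraries was analysed for 96 libraries: hepatocytes and LMs of 4 genotypes at 4 time points, 3 libraries each, grouped by the sample labels. The authors used STAR for alignment to mm9 and HOMER for counting on RefSeq transcripts; versions and the strand setting of the counting are not given in the sources used here. The deposited values are RPKM-type values (RPKTM, scaled to 10000000 reads), which the authors quantile normalized within each of 4 tables. Every library of a table therefore holds the same set of values, sequencing depth is unknown, reads cannot be recovered, and ranks rather than amounts separate the most abundant transcripts. No column was left unassigned.

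For each of 25095 symbols the transcript of highest mean was used, of 42322 transcripts. Genes over 5 RPKTM in at least 3 libraries were fitted with limma-trend (limma 3.58.1, R 4.3.3) on log2(RPKTM + 1) with 12 group means over the 36 libraries of a cell type, and p-values were adjusted by Benjamini and Hochberg over all 13326 (hepatocytes) or 13947 (LMs) genes tested. Changed rhythm was an F test of 24 h cosine and sine terms. JTK_CYCLE was rewritten in Python 3.11.15 (with scipy 1.17.1, numpy 2.4.6 and pandas 2.3.3) after the methods of the study: series entered 2 times, period called as 24 h, peak over trough above 1.5. That 18 h was the other period tried was a choice made here. The fits were tested on simulated data. The p-values measure the spread between libraries. ScapKO was kept apart because its tables were normalized on their own.

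The 7 members and all gene and marker lists were chosen with earlier results of these data known. Named genes are the members, up to 4 called genes of each list in each direction by size of change, genes of the lists that act directly on a member, and for each member the 3 genes of highest Pearson r. Some genes that this rule names are not reported here, though they are included in the counts of their lists. Alternatives were the pseudocount (0.1 and 10), no filter, the mean over transcripts, only the genotypes compared, a replicate block, a marker covariate and leaving out each library. The single time points and rhythm of RevScapTKO minus Control and 2 further sets of omitted libraries and the 24 h period alone were added after the data were seen.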

Additional observations from a re-analysis of the deposited data

How the results depend on the processing

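Each count of members called was recomputed under every alternative, and none of the values computed changed direction with a call. In hepatocytes the members called for RevScapTKO minus RevDKO went from 2 to 1 (Fgf21) with no filter or only these genotypes fitted, and to 1 with the macrophage marker covariate, where Fgf21 and Ahsg were both lost and Fgl1 gained (2 to 3 leaving out 1 library), and for RevScapTKO minus Control from 4 to 1 with that covariate. At single time points, RevDKO minus Control went from 0 to 1 with a pseudocount of 10, to 1 with the replicate block, to 2 with the marker covariate, and to 3 with only the genotypes compared or without the 2 libraries least like the others (0 to 2 leaving out 1 library). RevScapTKO minus RevDKO went from 1 to 0 with the marker covariate (0 to 3), and RevScapTKO minus Control from 5 to 3 with no filter (4 to 6). In LMs, RevDKO minus Control went from 1 to 0 with a pseudocount of 0.1 or no filter (0 to 1). Its time points gave 0 (0 to 1), those of RevScapTKO minus RevDKO went from 0 to 1 with a pseudocount of 10 or the replicate block and to 2 with the marker covariate, and those of RevScapTKO minus Control from 3 to 1 with no filter or only these genotypes and to 5 with the replicate block (1 to 5).

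Rhythm calls moved most. With the 24 h period tried alone they went in hepatocytes from 0 to 1 in RevDKO and from 0 to 2 in RevScapTKO, and in LMs from 1 to 2 in Control. With the series entered once, or with the 24 h regression in place of JTK_CYCLE, they went in hepatocytes from 1 to 0 and 0 in Control and from 1 to 0 and 0 in ScapKO, and in LMs to 0 by regression from 1 in Control, to 0 and 1 from 2 in RevDKO, to 2 and 0 from 4 in RevScapTKO, and to 1 and 0 from 5 in ScapKO. Leaving out 1 library gave 1 to 2 in Control, 0 to 2 in RevDKO, 0 to 1 in RevScapTKO and 0 to 1 in ScapKO hepatocytes, and 1 to 3, 1 to 3, 2 to 5 and 2 to 6 in LMs. The cause of these changes was not tested. Changed rhythm stayed at 0 members under all alternatives. The correlation of deviations of same-numbered libraries exceeded 0.1 in 3 to 5 of 12 pairs in hepatocytes and 3 to 8 in LMs, the latter for RevScapTKO minus Control (median 0.14, against -0.07 for other pairs). Not every pair did. Deviations within a group sum to 0, so the value for other pairs is no independent baseline. Whether the numbers pair samples was thus not settled, and the main fits did not pair them. The replicate block moved Fgl1 for RevScapTKO minus RevDKO in hepatocytes to an adjusted p of 0.0416 by limma. Without the 2 hepatocyte libraries least like the others, Fgf21 stayed called over RevDKO (1.54, adjusted p 0.0151).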
